A study of Mus musculus with 27 samples.

Results

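The clustered protocadherins are the adhesion-receptor genes that lie in 3 neighbouring arrays on mouse chromosome 18, and their members here were all symbols in the RNA tables that name an alpha, beta or gamma cluster isoform. That rule took 59 of 24293 symbols: 15 of the alpha cluster, 22 of the beta cluster and 22 of the gamma cluster. The gamma members divide into 12 of the A subfamily, 7 of the B subfamily and 3 of C type, and the alpha members include 2 of C type. On the mm10 build the alpha members span chr18:36930285-37188897, the beta members chr18:37264998-37521419 and the gamma members chr18:37661775-37841873, from the RefSeq annotation of GRCm38.p6.

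The study followed microglia, the resident macrophages of the brain, on their way to induced neuronal cells. All cells came from the cortex of wild-type C57BL/6 mice at postnatal day 1. Microglia were transduced with a lentivirus carrying ND1, the transcription factor NeuroD1, together with a second lentivirus for M2rtTA, the activator that responds to doxycycline, and were then moved to a medium for neurons that held the growth factors BDNF, GDNF and NT3 and received doxycycline a single time. RNA was sequenced from control microglia at day 2 and at day 7, from the ND1 cultures at day 2 and at day 7, and from cortical neurons cultured from the same age, with 3 libraries in each of these 5 groups. Whole-genome CpG methylation was read in 1 library of control microglia and 1 library of ND1 cells, for which the labels give no day. The labels do not say whether replicate libraries came from separate cultures or animals, so the p-values below measure only the spread between these libraries, which may be technical. The labels call the controls Control and do not say which virus or medium they received.

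Clustered protocadherins are cell-surface proteins with a row of cadherin repeats that bind identical copies on a neighbouring membrane. Each alpha or gamma isoform starts from its own promoter and its own long variable exon, which is spliced to constant exons shared by the whole cluster, whereas each beta gene is a single exon with no shared tail. Individual neurons switch on a few alternate isoforms, apparently at random, by loops that CTCF and cohesin form between a promoter and a distant enhancer, while the C-type isoforms are used much more uniformly. The resulting surface codes let a neuron recognise and avoid its own branches, and methylation of a variable promoter goes with its silence. Because alpha isoforms share constant exons, and gamma isoforms likewise, reads in those exons had to be divided among isoforms by the authors' estimation, so that the value of a single alpha or gamma isoform is less certain than the sum of its cluster.

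Expression is in FPKM, a level per length in which the fragments on a gene are divided by its length in kilobases and by the depth of the library. The step size of low values put the libraries at an estimated 25900000 to 40000000 fragments, so that 1 fragment per kilobase was worth 0.0250 to 0.0387 FPKM. ND1 RNA itself, listed as Neurod1, was 1.04 to 2.16 FPKM in the 6 control libraries, 3073 to 3454 FPKM in the ND1 libraries at day 2, 32.5 to 36.7 FPKM at day 7 and 6.38 to 6.79 FPKM in cortical neurons. The summed FPKM of 8 neuronal markers was 17.6 to 22.8 in control microglia at day 7, 573 to 712 in the ND1 libraries at day 2, 3537 to 3563 at day 7 and 2558 to 2750 in cortical neurons. The summed FPKM of 8 microglial markers was 7150 to 7397 in control microglia at day 7, 280 to 370 in the ND1 libraries of that day and 16.0 to 17.4 in neurons, so the ND1 cultures still held microglial RNA at day 7. In such bulk samples, fewer cells of a type and less RNA per cell cannot be told apart.

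The alpha and beta clusters were nearly silent in control microglia, the gamma cluster was not, and the clusters together reached the total of cortical neurons in the ND1 cultures by day 7. The 59 members together summed to 20.7, 23.5 and 23.3 FPKM in the 3 control libraries at day 7, to 210.2, 211 and 212 FPKM in the ND1 libraries of the same day, and to 217, 221 and 198 FPKM in neurons. The 3 ND1 sums lay inside the range of the neuronal sums and far above every control. The ratio of mean sums was 9.38 for ND1 against control microglia at day 7 and 0.997 for ND1 at day 7 against neurons. At day 2 the sums were 12, 12.4 and 11.3 FPKM in controls and 51.5, 45.9 and 43.2 FPKM in ND1 cultures, a ratio of 3.94. With 3 libraries against 3, an exact two-sided permutation test cannot go below 0.1, so the sums are given as values.

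The 3 clusters differed in how low they started. The alpha sum was 0.445, 0.463 and 0.738 FPKM in control microglia at day 7 and 39.7, 43.2 and 40.9 FPKM in the ND1 cultures, a ratio of 75.2. The beta sum was 2.14, 2.14 and 2.11 FPKM in those controls and 48.2, 49.4 and 48.8 FPKM in the ND1 cultures, a ratio of 22.9. The gamma sum was 18.1, 20.9 and 20.4 FPKM in those controls and 122, 119 and 122 FPKM in the ND1 cultures, a ratio of 6.11. All 3 clusters were therefore wholly higher in the ND1 libraries, and the cluster with the highest microglial level had the smallest ratio.

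Against neurons the clusters did not stand in one order. The alpha sum of neurons, 64.4, 61.9 and 56.5 FPKM, lay above every ND1 library of day 7, with a ratio of ND1 to neuron of 0.677. The beta sum of neurons, 43.5, 41.0 and 38.2 FPKM, lay below every ND1 library, with a ratio of 1.19. The gamma sum of neurons, 109, 118 and 103 FPKM, also lay below the ND1 libraries, with a ratio of 1.10.

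**Figure D1:**
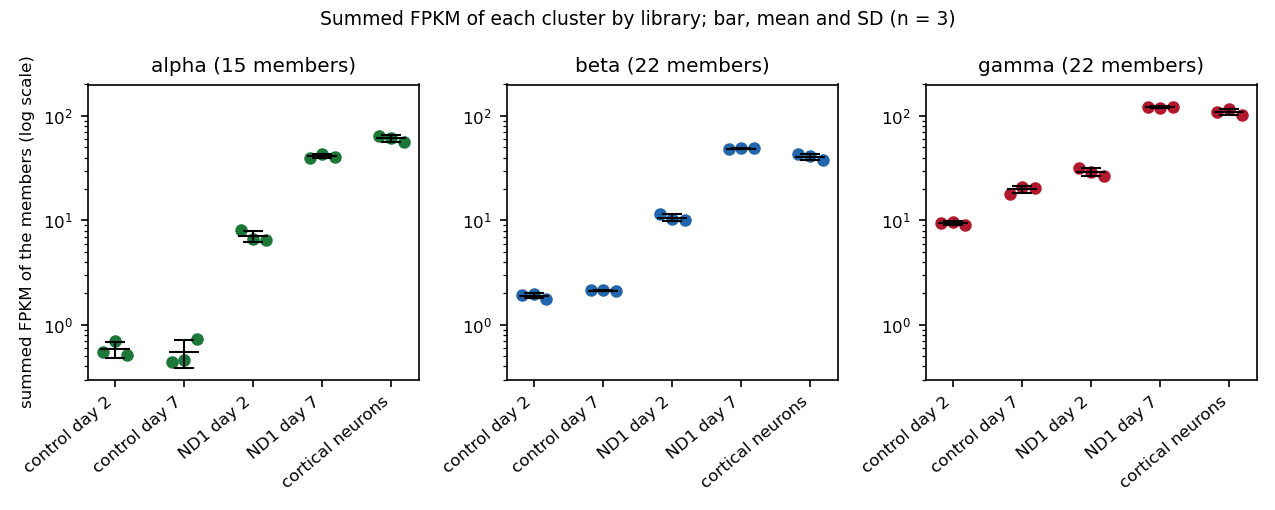
Summed FPKM of the alpha, beta and gamma members in each of the 15 RNA libraries on a log axis, with the mean and SD of the 3 libraries of each group. The alpha sum rises from a mean of 0.549 FPKM in control microglia at day 7 to 41.3 FPKM in ND1 cultures of that day, and the control gamma sum is already higher at day 7 (19.8 FPKM) than at day 2 (9.40 FPKM).

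Single members followed the sums. The median member stood at 0.0674 FPKM in control microglia at day 2, 0.0820 at day 7, 0.552 in ND1 cultures at day 2, 2.86 in ND1 cultures at day 7 and 2.19 in neurons. At least 1 FPKM was reached by 2 of the 59 members in each control library of day 2, by 4 in each control library of day 7, by 10 to 15 in the ND1 libraries of day 2, by 49 to 51 in those of day 7 and by 52 to 54 in neurons. No member was at 0 in all libraries, and all 59 were above 0 in every ND1 library of day 7 and every neuronal library. In controls, 42 of the 354 member values were listed at exactly 0, and a value of 0 may be a failed estimate as well as a missing transcript.

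**Figure D2:**
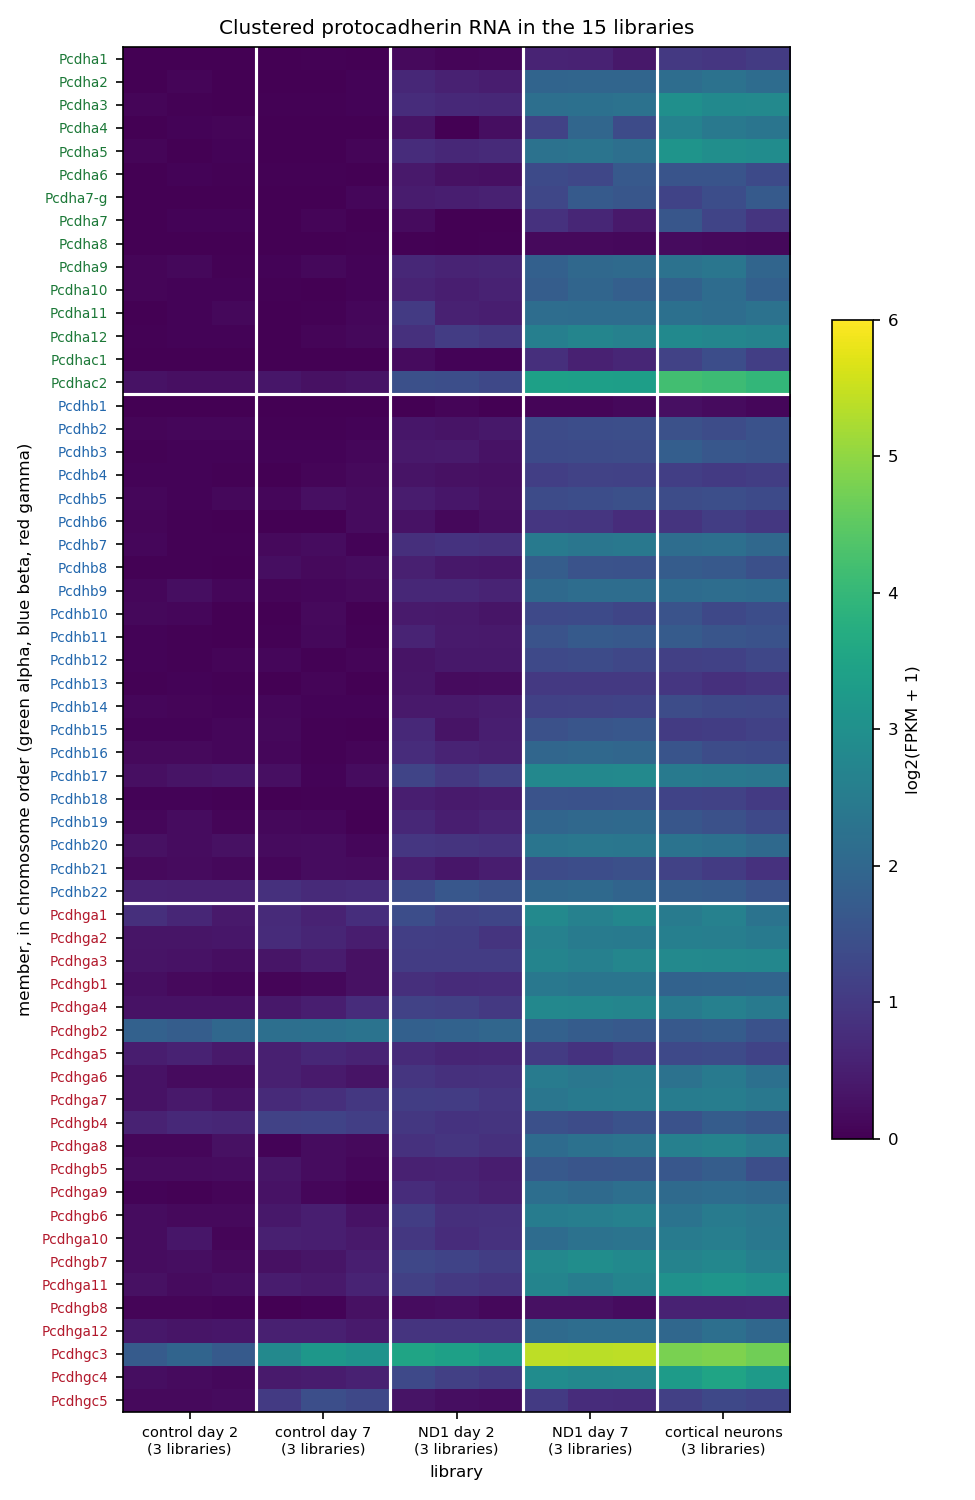
Heat map of log2(FPKM + 1) for the 59 members (rows, in chromosome order, labels green for alpha, blue for beta and red for gamma) in the 15 libraries (columns, by group). Low values are dark and high values bright. The control columns are dark except at a few gamma members, such as Pcdhgc3 (6.08 to 8.04 FPKM at day 7) and Pcdhgb2 (3.59 to 3.84 FPKM at day 7), while most rows are brighter in the ND1 columns of day 7 and in the neuronal columns.

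Changes were tested with limma on log2(FPKM + 1), which understates the change of genes with low values, over the 13599 genes that reached 1 FPKM in 3 libraries or more, and a gene was called at an adjusted p below 0.05 (Benjamini-Hochberg) with a change of at least 1 on the log2 scale. Counts by adjusted p alone, at any size of change, are given with the main comparisons, and an unadjusted p below 0.05 gave the same member counts except for 15 higher in control microglia at day 7 against day 2. Of the 59 members, 52 passed the filter on low values, and Pcdha1, Pcdha7, Pcdha8, Pcdhb1, Pcdhb6, Pcdhb13 and the pseudogene Pcdhgb8 did not. Of the 52, 48 had at least 1 FPKM in no control library and so entered the test only through ND1 or neuronal libraries, for which reason the counts were also taken over all 59 members with no filter.

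ND1 cultures set against control microglia at day 7 gave 47 of the 52 tested members called higher, where 25.7% of all tested genes were called higher, and 0 lower, where 24.5% of all tested genes were. With no filter the count was 47 of 59 members, against 17.3% of 20265 genes. With no size limit, 50 of the 52 members were higher at an adjusted p below 0.05 (46.5% of tested genes) and 2, Pcdhgb2 and Pcdhgc5, were lower (44.2% of tested genes). The median log2 difference was 1.86 over the 52 members and 1.61 over the 59, against 0.04 over all genes tested with the filter and 0 without it. Within the clusters, 10 of 10 tested alternate alpha members, 19 of 19 beta members, 11 of 12 gamma A members, 4 of 6 gamma B members and 3 of 5 C-type members rose. With no filter these counts were 10 of 13, 19 of 22, 11 of 12, 4 of 7 and 3 of 5. For 50 of the 52, the lowest ND1 value exceeded the highest control value, as it did for 46.6% of all tested genes, and it did so for 56 of all 59 members. Under quantile normalization 36 of the 52 members were called higher (24.3% of tested genes) and 0 lower (26.2%), with 9 of 19 beta members called. By adjusted p alone the split was then 48 higher (45%) and 4 lower (46%). Pcdhga5 and Pcdhgb4 turned to the lower side, past an adjusted p of 0.05 both ways.

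The C-type isoforms, which most neurons express, ranged from the largest change of all members to a small change in the other direction. Pcdhac2 (chr18:37143678-37187663), an alpha isoform known from the spacing of serotonergic axons, was 0.285, 0.197 and 0.253 FPKM in control microglia at day 7, 9.61, 9.49 and 9.21 FPKM in ND1 cultures and 17.0, 16.4 and 14.8 FPKM in neurons. The groups did not overlap, with neurons highest. Its log2 difference of ND1 against control was 3.07 ± 0.057 (SE, adjusted p = 1.98e-15 in limma), and that of ND1 against neurons was -0.71 ± 0.057 (adjusted p = 7.68e-08 in limma).

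Pcdhgc3 (chr18:37806410-37841873), an isoform that binds Axin1 and promotes dendrite branching, was the most abundant member in ND1 cultures and neurons. It stood at 6.08, 8.04 and 7.32 FPKM in control microglia at day 7, 41.4, 40.5 and 41.1 FPKM in ND1 cultures and 26.8, 27.7 and 25 FPKM in neurons. Here the ND1 libraries were the highest of all and the controls were above those of every other member. The log2 difference was 2.37 ± 0.094 for ND1 against control (adjusted p = 6.51e-12 in limma) and 0.61 ± 0.094 for ND1 against neurons (adjusted p = 4.74e-05 in limma).

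Pcdhgc4 (chr18:37815079-37841873), the gamma isoform that neurons need for survival, was 0.340, 0.380 and 0.468 FPKM in controls of day 7, 6.58, 5.98 and 6.06 FPKM in ND1 cultures and 8.77, 10.4 and 8.62 FPKM in neurons. It rose by 2.37 ± 0.082 on the log2 scale in ND1 cultures (adjusted p = 1.29e-12 in limma) and was 0.51 below neurons there (log2 difference -0.51 ± 0.082, adjusted p = 7.39e-05 in limma). Pcdhac1, the other alpha C-type isoform, was listed at 0 in all 3 controls of day 7 and stood at 0.764, 0.456 and 0.567 FPKM in ND1 cultures and 1.26, 1.68 and 1.16 FPKM in neurons.

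Pcdhgc5 (chr18:37819546-37841873), an isoform that appears late in brain development and associates with GABA-A receptors, went against the other C-type isoforms. Its values were 1.03, 1.71 and 1.47 FPKM in control microglia at day 7, 1.03, 0.686 and 0.658 FPKM in ND1 cultures and 1.21, 1.47 and 1.34 FPKM in neurons. The ND1 group overlapped the controls in 1 library and lay below them in the others, and neurons overlapped the controls. The log2 difference of ND1 against control was -0.42 ± 0.097 (adjusted p = 0.00106 in limma), below the size needed for a call.

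Among alternate alpha isoforms, Pcdha12 was listed at 0, 0.0538 and 0.0861 FPKM in controls of day 7 and stood at 5.0, 5.67 and 5.25 FPKM in ND1 cultures and 6.24, 5.72 and 5.43 FPKM in neurons. ND1 cultures and neurons overlapped, and the log2 difference of ND1 against control was 2.59 ± 0.063 (adjusted p = 2.8e-14 in limma). Pcdha5 was 3.79, 3.92 and 3.54 FPKM in ND1 cultures and 7.62, 6.78 and 6.54 FPKM in neurons, with 0 in 2 controls of day 7 and 0.0627 FPKM in the other. Its ND1 values were wholly below neurons (log2 difference -0.75 ± 0.054, adjusted p = 2.13e-08 in limma). Pcdha3 was likewise 3.54, 3.67 and 3.81 FPKM in ND1 cultures and 6.92, 6.25 and 6.06 FPKM in neurons, where all 3 controls were at or below 0.0373 FPKM.

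The beta genes encode single-exon receptors, so their values do not depend on shared exons. Pcdhb17 (chr18:37485021-37488290) was 0.193, 0.0419 and 0.157 FPKM in controls of day 7, 6.02, 6.01 and 6.09 FPKM in ND1 cultures and 4.44, 4.28 and 4.14 FPKM in neurons. ND1 libraries were wholly highest, by 2.64 ± 0.063 on the log2 scale over controls (adjusted p = 2.1e-14 in limma) and by 0.41 ± 0.063 over neurons (adjusted p = 4.26e-05 in limma). Pcdhb7 showed the same order, at 4.44, 4.13 and 4.31 FPKM in ND1 cultures against 3.45, 3.6 and 3.09 FPKM in neurons. Pcdhb20 was 4.05, 4.18 and 4.09 FPKM in ND1 cultures and 3.85, 3.66 and 3.17 FPKM in neurons, a log2 difference of 0.17 ± 0.054 (adjusted p = 0.013 in limma).

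The gamma A and B isoforms share the gamma constant exons and pair with one another in recognition complexes. Pcdhga11 was 0.373, 0.333 and 0.517 FPKM in controls of day 7, 5.55, 4.86 and 5.5 FPKM in ND1 cultures and 7.23, 7.74 and 7.07 FPKM in neurons, which were wholly above the ND1 group. The gamma A isoform Pcdhga3 was 0.265, 0.365 and 0.196 FPKM in those controls, 5.52, 5.13 and 5.76 FPKM in ND1 cultures and 6.11, 5.96 and 5.87 FPKM in neurons, a little above the ND1 group. Pcdhgb7 was 0.210, 0.272 and 0.421 FPKM in those controls, 6.01, 6.65 and 6.21 FPKM in ND1 cultures and 5.42, 5.86 and 5.02 FPKM in neurons. Pcdhgb1 was 0.0611, 0.0919 and 0.2 FPKM in those controls, 4.25, 4.01 and 4.06 FPKM in ND1 cultures and 2.67, 2.79 and 2.80 FPKM in neurons. Pcdhgb7 and Pcdhgb1 were thus higher in ND1 cultures than in every neuronal library, and their log2 differences of ND1 against control were 2.49 ± 0.071 and 2.19 ± 0.051 (adjusted p = 1.5e-13 and 1.51e-14 in limma).

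Pcdhgb2 (chr18:37689859-37841872), a gamma B isoform chosen for description after its values were seen, had the highest microglial level of any alternate member. It was 3.59, 3.6 and 3.84 FPKM in controls of day 7, 2.64, 2.38 and 2.22 FPKM in ND1 cultures and 2.21, 2.38 and 1.83 FPKM in neurons. Every control lay above every ND1 and neuronal library, and the log2 difference of ND1 against control was -0.46 ± 0.076 (adjusted p = 6.01e-05 in limma). Pcdhgb4, described on the same ground, was 1.28, 1.31 and 1.18 FPKM in controls of day 7 and 1.78, 1.64 and 1.85 FPKM in ND1 cultures, a log2 difference of 0.29 ± 0.060 (adjusted p = 0.000432 in limma) that turned to the lower side under quantile normalization.

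The ND1 cultures and the neurons used nearly the same members, at a total that was alike, in somewhat different proportions. Across the 59 members, mean levels in ND1 cultures at day 7 and in neurons had a Spearman rho of 0.908 and a Pearson r of 0.922 on log2 values, given as a description since members share exons, length and annotation. The same rho between control microglia of day 7 and neurons was 0.421. Of the 52 tested members 0 were called higher in ND1 cultures than in neurons, where 7.29% of tested genes were, and 0 lower, where 6.24% were. By adjusted p alone 16 members were higher (41.5% of tested genes) and 16 lower (33.6%), and over all 59 members with no filter 14 were higher (29.4%) and 20 lower (28.4%). Under quantile normalization the split by adjusted p alone was 12 higher and 22 lower (37.5% of tested genes each way), and 1 member, Pcdha4, was called lower (7.69%). The lowest ND1 value lay above the highest neuronal value for 15 of the 52 (43.4% of tested genes), and the reverse held for 16 of the 52 (34.7%).

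The counts against neurons are given by cluster, with no test of a difference between clusters, and are to be read against the 41.5% of all tested genes higher and 33.6% lower. Taken by adjusted p alone, 0 of 10 alternate alpha members were higher and 5 lower, 10 of 19 beta members higher and 2 lower, 2 of 12 gamma A members higher and 4 lower, and 3 of 6 gamma B members higher and 1 lower. Of the 5 C-type members Pcdhgc3 was higher and the other 4 were lower. Under quantile normalization, with 37.5% of tested genes on each side, the beta split was 8 higher and 5 lower, the gamma B split was 1 and 1, and the beta median turned from 0.13 to -0.06 on the log2 scale. Over all 15 alpha members, only Pcdha7-g, whose symbol shares the start of Pcdha7, had a higher mean in ND1 cultures than in neurons, and the median ratio was 0.813. Pcdha4 had the lowest ratio of the alpha members that passed the filter, at 1.29, 2.94 and 1.57 FPKM in ND1 cultures against 5.29, 4.35 and 4.06 FPKM in neurons (log2 difference -0.96 ± 0.155, adjusted p = 7.2e-05 in limma).

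Within the beta cluster the values are given by position, in a split chosen after the values were seen and so as a description. The 8 members at the gamma-facing end, Pcdhb15 to Pcdhb22, all had a higher mean in ND1 cultures, with ratios of 1.15 to 1.74 and a median of 1.57. Of the 14 members from Pcdhb1 to Pcdhb14, 7 had a higher and 7 a lower mean, with a median ratio of 0.995. Pcdhb16, at the top of this range, was 2.92, 3.09 and 2.92 FPKM in ND1 cultures and 1.94, 1.63 and 1.56 FPKM in neurons.

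**Figure D3:**
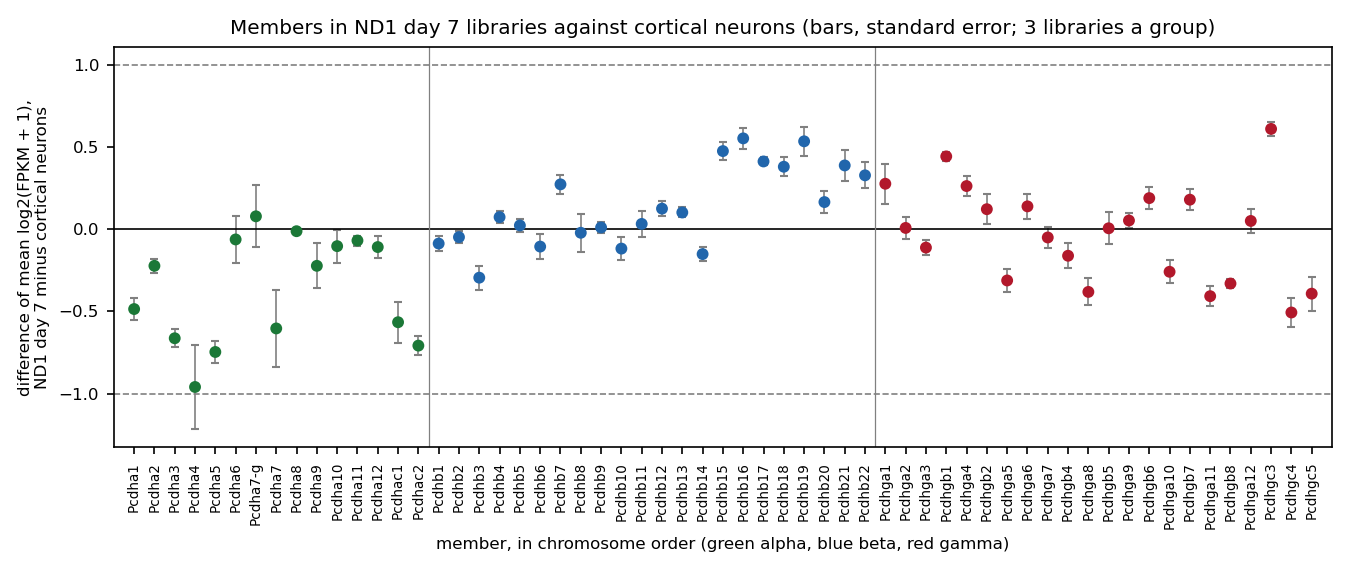
Difference of mean log2(FPKM + 1) between ND1 cultures at day 7 and cortical neurons for each member in chromosome order (x axis, green alpha, blue beta, red gamma). Bars are the standard error of the difference, taken from the spread of the 3 libraries in each of these groups and not from limma. Alpha members lie mostly below 0, Pcdhb15 to Pcdhb22 lie above 0, and Pcdhgc3 (0.61) stands above the other C-type members, which run from -0.39 for Pcdhgc5 to -0.71 for Pcdhac2.

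Pcdhgc3 took a larger share of the summed expression in ND1 cultures than in neurons, and the effective number of isoforms over all members was lower. The effective number of isoforms, the inverse of the summed squared shares, was 18.6 ± 0.359 in ND1 cultures at day 7 and 26.7 ± 0.113 in neurons (SD, n = 3), and 7.06 ± 0.570 in control microglia of day 7. Pcdhgc3 made up 19.4% ± 0.25 of all clustered protocadherin FPKM in ND1 cultures and 12.5% ± 0.134 in neurons (SD, n = 3). Within the gamma cluster the effective number was 7.13 in ND1 cultures and 10.8 in neurons, and with Pcdhgc3 left out it was 17.1 and 16.6. The alpha cluster gave 8.85 and 8.05, and the beta cluster 16.2 and 17.2. The lower number in ND1 cultures was thus not seen in the alpha cluster or in the gamma cluster without Pcdhgc3. These are numbers for a population of cells and say nothing of how many isoforms a cell uses.

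Cortical neurons against control microglia of day 7 gave 45 of 52 members higher (28.1% of tested genes) and 0 lower (25.2%), and 46 of 59 with no filter (19% of genes). This comparison and that of ND1 with control microglia at day 7 share their controls, so their values stand side by side and are no separate evidence. Pcdhac2 differed by 3.78 ± 0.057 on the log2 scale, Pcdha5 by 2.96 ± 0.054, Pcdhgc4 by 2.87 ± 0.082, Pcdha3 by 2.85 ± 0.049 and Pcdha12 by 2.70 ± 0.063, all at adjusted p values from limma of 1.2e-13 or below. By adjusted p alone 50 of the 52 were higher in neurons (47.3% of tested genes) and 1, Pcdhgb2, was lower (43.7%; log2 difference -0.58 ± 0.076, adjusted p = 5.43e-06 in limma).

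At day 2 the ND1 cultures already held more clustered protocadherin RNA than their controls, at low levels. The test called 3 of 52 members higher, Pcdhgc3, Pcdhac2 and Pcdhgb7, where 9.1% of all tested genes were called, and 0 lower (0.618%), and with no filter 3 of 59 (6.09%). By adjusted p alone 48 of 52 were higher (31.6% of tested genes) and 0 lower (36.3%), and 50 of 59 with no filter (22.7%). Under quantile normalization the split by adjusted p alone was 14 higher (24.3%) and 6 lower (44.3%), and 1 member, Pcdhgc3, was called (6.01%). The lowest ND1 value exceeded the highest control value in 50 of the 52 tested members and in 35.3% of tested genes.

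Pcdhgc3 was 2.30, 2.82 and 2.22 FPKM in controls of day 2 and 10.3, 9.67 and 8.15 FPKM in ND1 cultures, a log2 difference of 1.59 ± 0.094 (adjusted p = 4.39e-09 in limma). Pcdhac2 was 0.218, 0.189 and 0.184 FPKM in those controls and 1.78, 1.73 and 1.48 FPKM in ND1 cultures, a log2 difference of 1.15 ± 0.057 (adjusted p = 6.83e-10 in limma). Pcdhgb7 was 0.152, 0.168 and 0.108 FPKM in those controls and 1.43, 1.32 and 1.11 FPKM in ND1 cultures. Its log2 difference of 1.00 ± 0.071 (adjusted p = 3e-08 in limma) sat on the threshold and fell under it, to between 0.96 and 0.99, without control replicate 3 or without ND1 replicate 1 or 2 of day 2. Pcdhgc4 was just under it at 0.98 ± 0.082.

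For most members the day 2 rise was a similar share of the day 7 rise, with a wide spread at the ends. For 54 members with a rise of at least 0.5 FPKM between controls of day 2 and ND1 cultures of day 7, the day 2 rise was a median of 16.7% of the day 7 rise (interquartile range 15.7% to 18.2%, 5th to 95th percentile 10.7% to 24.8%). For 671 other genes high in both ND1 cultures of day 7 and neurons (at least 10 FPKM in each and at least 20-fold above control microglia of day 7 in neurons), the median was 17.1%, with 15% and 18.9% at the 5th and 95th percentiles, and 35 of the 54 members lay inside that band, 10 below it and 9 above it. Members entered at lower levels than these genes (median member 0.552 FPKM in ND1 cultures of day 2), so their shares are less exact. Whether members outside the band differ from it by more than such noise was not tested. Pcdhac2 had 15.9%, Pcdhgc3 17.9% and Pcdhgb7 18.6%. The members farthest below the band were Pcdha7 (3.70%), Pcdha4 (5.32%), Pcdhgc5 (10.6%) and Pcdhac1 (10.7%), and those farthest above it were Pcdhb22 (54.0%), Pcdhga5 (30.5%), Pcdhgb4 (27.7%), Pcdhb14 (23.2%) and Pcdha7-g (21.8%). Both rises count from controls of day 2 and so hold any change of the controls by day 7. Pcdhgc5 was lower in ND1 cultures than in controls at day 7 (log2 difference -0.42), so its share is not one of an ND1 effect. Pcdha7 and Pcdha7-g share a start, so reads may be divided between them and their shares cannot be set against each other. Pcdhb22, the last beta gene and chosen after its values were seen, had the highest share of the 54: 0.484, 0.461 and 0.456 FPKM in controls of day 2, 1.60, 2.10 and 1.81 FPKM in ND1 cultures of day 2 and 3.03, 3.15 and 2.84 FPKM at day 7, so that 54.0% of its rise was present at day 2. With the median share of the other neuron-high genes (19.4%, 16.3% and 15.4% of the day 7 mean, for the 3 libraries) taken out of the ND1 libraries of day 2, its log2 difference at day 2 was 0.81 ± 0.084 (adjusted p = 7.55e-06 in limma). With that share out, 0 of the 52 members were called in either direction (0.727% of tested genes higher, 0.301% lower; 3 members higher and 2 lower at an unadjusted p below 0.05 in limma), a count that restates the shares above and is no separate result. What sets these shares was not tested.

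The change from day 2 to day 7 was larger than the spread. The difference between the ND1 effects of the 2 days was called higher at day 7 in 36 of 52 members (20.5% of tested genes) and lower in 0 (20.8%), and in 36 of 59 with no filter (13.8% of genes). The 5 largest were Pcdhac2 (1.92 ± 0.081 on the log2 scale), Pcdhb17 (1.81 ± 0.089), Pcdha12 (1.69 ± 0.090), Pcdhgb1 (1.58 ± 0.072) and Pcdhga3 (1.56 ± 0.074), each with an adjusted p of 4.4e-10 or below in limma. By adjusted p alone 49 of 52 were higher (46.3%) and 2, Pcdhgb2 and Pcdhgc5, were lower (39.1%), and Pcdhgc5 had a difference of -0.51 ± 0.138 (adjusted p = 0.00366 in limma). Pcdhgc3, which was already present at day 2, gained 0.79 ± 0.133 (adjusted p = 8.13e-05 in limma).

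Control microglia changed with time in the gamma cluster. The gamma sum was 9.50, 9.70 and 8.99 FPKM at day 2 and 18.1, 20.9 and 20.4 FPKM at day 7, a ratio of 2.11, while the alpha ratio was 0.938 and the beta ratio 1.12. The test called 2 of 52 members higher at day 7 (3.9% of tested genes), Pcdhgc3 and Pcdhgc5, and 0 lower (3.79%), and 2 of 59 with no filter (2.65%). Pcdhgc3 gained 1.24 ± 0.094 (adjusted p = 6.73e-08 in limma) and Pcdhgc5 1.09 ± 0.097 (adjusted p = 3.31e-07 in limma), the latter from 0.112, 0.113 and 0.129 FPKM at day 2. Control values of day 7 lay wholly above those of day 2 for 16 of the 52 members and for 36.2% of tested genes. Without control replicate 2 of day 7 the Pcdhgc5 difference was 0.999, just under the threshold. By adjusted p alone 14 members were higher (33.8%) and 0 lower (32%), against 9 higher and 4 lower under quantile normalization (33.5% and 32.3%).

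Markers of other cell types moved in the same controls. The summed FPKM of 10 astrocyte markers was 20.2 to 21.7 at day 2 and 77.0 to 80.9 at day 7, and 4 and then 9 of the 10 had a mean of at least 1 FPKM. That of 8 fibroblast and mural markers was 1.18 to 2.35 at day 2 and 25.6 to 35.1 at day 7, with 0 and then 5 of the 8 at a mean of at least 1 FPKM, and Vtn was listed at 0 in all controls of day 2. The sum of 8 oligodendrocyte-lineage markers was 10.0 to 10.7 at day 2 and 18.2 to 20.3 at day 7. That of 5 endothelial markers was 13.8 to 14.7 at day 2 and 6.79 to 8.30 at day 7. The fibroblast and mural sum was 33.4 to 37.3 in ND1 cultures of day 7 and 14 to 15.2 in neurons. Their part in the gamma-cluster values was not tested.

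Genes that act with the clustered protocadherins gave the setting at day 7. Of 15 tested regulators of the clusters, 3 were higher in ND1 cultures than in control microglia (25.7% of tested genes were) and 1 lower, with a median log2 difference of 0.24 against 0.04 over all tested genes. The higher ones were the cohesin-associated Pds5b (1.66 ± 0.062, SE), the cohesin subunit Smc3 (1.52 ± 0.065) and the zinc-finger protein Wiz (1.07 ± 0.046), and the lower one was Rest, the repressor of neuronal genes (-1.59 ± 0.11). Ctcf, which anchors the promoter loops, had means of 20.7 FPKM in control microglia of day 7, 29.4 FPKM in ND1 cultures and 16.4 FPKM in neurons, none of these differences reaching the size needed for a call. Dnmt1, the maintenance DNA methyltransferase, was the only regulator called against neurons, where it was 1.07 ± 0.044 higher in ND1 cultures on the log2 scale.

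Of 22 tested effectors and adhesion partners, 9 were higher and 8 lower at day 7 (25.7% and 24.5% of all tested genes), with a median of -0.39. Among subunits of the WAVE complex, which alpha protocadherins bind to steer actin, Wasf1 rose by 4.51, Nckap1 by 3.82 and Abi2 by 2.97 on the log2 scale, while Nckap1l (-3.91 ± 0.061), the Nckap1 relative of blood cells, and Wasf2 (-3.19 ± 0.076) and Cyfip1 (-2.14 ± 0.042) fell. Ptk2b, the kinase Pyk2 that protocadherin tails inhibit, was also lower (-3.50 ± 0.073), and Nlgn2, a synaptic partner, was higher (2.88 ± 0.077). Nckap1l, Wasf2 and Cyfip1 were still higher in ND1 cultures than in neurons, by 3.47, 1.66 and 1.02 on the log2 scale.

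The clustered genes were not alone among cadherins. Of 11 tested non-clustered protocadherins, 9 were higher in ND1 cultures than in control microglia at day 7 (25.7% of all tested genes were), with a median log2 difference of 2.23, led by Pcdh8 (4.20 ± 0.062), Pcdh9 (2.92 ± 0.060), Pcdh7 (2.78 ± 0.073) and Pcdh20 (2.48 ± 0.054). Of 18 other cadherins and DSCAM genes 16 were higher, with a median of 2.56, led by Cdh13 (4.21 ± 0.080), N-cadherin Cdh2 (3.95 ± 0.092), Cdh8 (3.87 ± 0.061) and Fat4 (3.61 ± 0.062). Against neurons, 4 of the 11 non-clustered protocadherins were called lower in ND1 cultures (6.24% of all tested genes were), namely Pcdh11x (-2.65 ± 0.068), Pcdh17 (-1.76 ± 0.074), Pcdh20 (-1.37 ± 0.054) and Pcdh8 (-1.15 ± 0.062), with a median of -0.94. That median was 0.01 for the 52 clustered members.

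Genes flanking or lying between the clusters were called about as often as all tested genes, of which 25.7% were higher and 24.5% lower. Of 9 tested, 2 were higher in ND1 cultures at day 7, Rell2 (3.57 ± 0.073) and Fchsd1 (1.23 ± 0.067), and 2 lower, Arap3 (-3.42 ± 0.082) and Diap1 (-1.41 ± 0.047), listed in RefSeq as Diaph1.

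CpG methylation over the members was intermediate and hardly differed between the control and ND1 libraries. With 1 library a condition there is no test, and the number of reads behind each fraction is unknown. In the window from 500 bases before to 500 after the annotated start, 58 windows covered the 59 members, since Pcdha7-g starts with Pcdha7. The median methylated fraction was 0.287 in control microglia and 0.271 in ND1 cells, with interquartile ranges of 0.188 to 0.348 and 0.181 to 0.349. Of the 58 windows, 53 (91.4%) lay between 0.1 and 0.5 in each library, whereas this held for 13.7% of 24462 other annotated genes in control microglia, of which 44.5% lay below 0.1 and 41.8% above 0.5. The member windows held 5 to 67 CpG positions, with an interquartile range of 14 to 31. Among 4812 other genes with 14 to 31 CpG positions, 28.4% lay between 0.1 and 0.5 in control microglia.

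The clusters and the C-type isoforms differed in promoter methylation. The median was 0.289 in control and 0.278 in ND1 cells for 14 alpha windows, 0.356 and 0.359 for 22 beta windows, and 0.182 and 0.179 for 22 gamma windows. The 3 windows below 0.1 were all of C type: Pcdhgc3 (0.008 in control and 0.011 in ND1), Pcdhac2 (0.032 in each) and Pcdhgc4 (0.039 and 0.021). Pcdhac1 stood at 0.177 and 0.193, and Pcdhgc5 at 0.492 and 0.474, the highest of the gamma cluster. The 2 windows above 0.5 were the beta genes Pcdhb20 (0.591 and 0.512) and Pcdhb13 (0.588 and 0.549). The low fractions of these C-type promoters were thus present in control microglia, where Pcdhgc3 stood at a mean level of 7.15 FPKM at day 7 and Pcdhac2 and Pcdhgc4 at 0.245 and 0.396 FPKM.

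**Figure D4:**
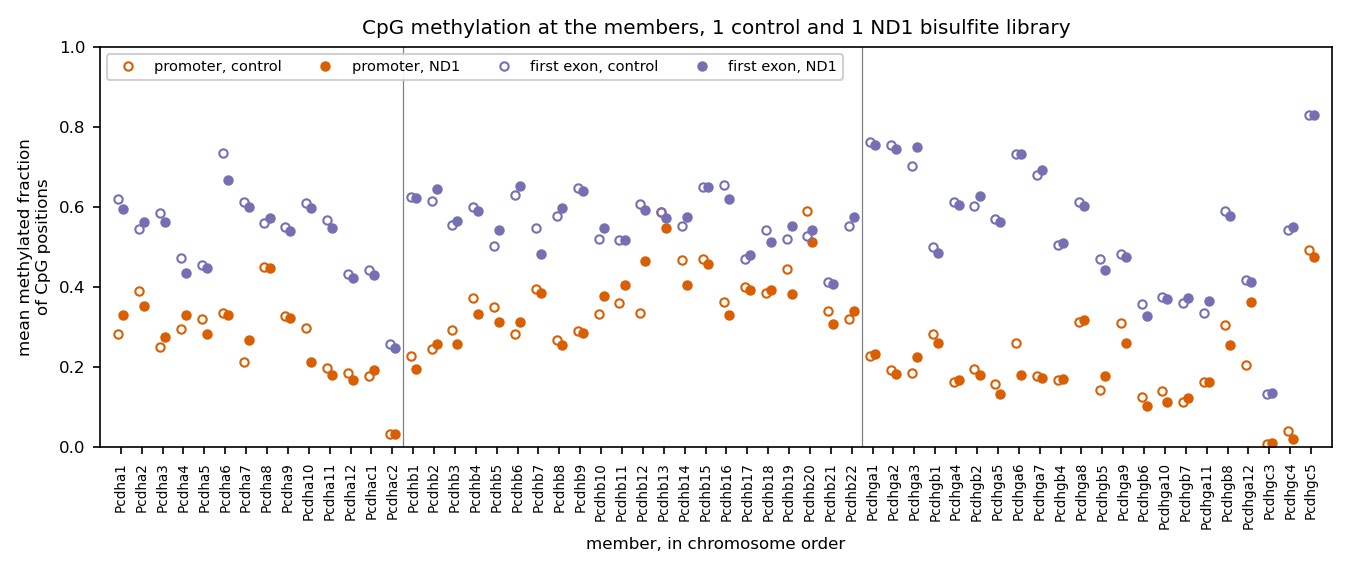
Mean methylated fraction of CpG positions in the promoter window and in the first-exon window of each member in chromosome order, open circles for the control library and filled circles for the ND1 library (1 library each). Promoter values run from 0.008 at Pcdhgc3 to 0.591 at Pcdhb20 in control microglia, first-exon values lie mostly between 0.3 and 0.7, and open and filled circles nearly coincide.

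The difference between ND1 and control at promoters had a median of -0.009 and ran from -0.065 at the 5th to 0.048 at the 95th percentile, with 35 windows lower and 23 higher in ND1 cells. A difference of at least 0.1 was seen in 2 of the 58 (3.45%), in 2.06% of other genes and in 0.249% of the 4812 other genes with 14 to 31 CpG positions. The 2 members were Pcdhga12, at 0.205 in control and 0.364 in ND1 over 11 CpG positions, and Pcdhb12, at 0.334 and 0.466 over 10 positions. Their windows held fewer positions than those of the 4812 genes. Both were higher in ND1 cells, and the RNA of Pcdhga12 was 0.440, 0.432 and 0.347 FPKM in controls of day 7 and 3.19, 3.45 and 3.45 FPKM in ND1 cultures. Promoter fractions of the 2 libraries had a Spearman rho of 0.930 over the 58 windows, as a description.

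Inside the variable exon, from 500 to 2500 bases after the start, methylation was higher. The median was 0.554 in control and 0.563 in ND1 cells, and it was close to that in each cluster (0.556, 0.554 and 0.557 for alpha, beta and gamma in control). Between 0.3 and 0.7 lay 86.2% of the member windows and 36.5% of windows of other genes in control microglia. Windows of other genes were placed by distance from the start alone, so unlike those of members they need not lie in an exon. Other genes with 53 to 75 CpG positions in that window, the interquartile range of the members, had a median of 0.141, and 14.4% of them lay between 0.3 and 0.7. The extremes were again C-type genes, with Pcdhgc3 at 0.132 in control and 0.135 in ND1 and Pcdhgc5 at 0.831 and 0.829. The promoter was less methylated than the exon in 56 of 58 members in control, with Pcdhb13 and Pcdhb20 as exceptions, and in 58 of 58 in ND1 cells.

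Pooled over the members, methylation had a narrow dip around the start, where not every member had CpG positions in each bin. The mean fraction was 0.626 in control and 0.626 in ND1 cells in the 250 bases centred 875 bases before the start, 0.173 and 0.174 in the 250 bases just before it, 0.219 and 0.214 in the 250 bases just after it, and 0.504 and 0.504 in the bin 875 bases after it. Over the whole clusters the mean fraction was 0.508 in control and 0.502 in ND1 for alpha (2207 CpG positions), 0.536 and 0.534 for beta (2102 positions) and 0.473 and 0.471 for gamma (2956 positions). The 200 kb before the alpha cluster had 0.618 and 0.621, the 200 kb after the gamma cluster 0.652 and 0.653, and all autosomes with X 0.70 and 0.703. In control microglia, CpG positions with a fraction between 0.2 and 0.8 made up 64.1% of the alpha, 74.1% of the beta and 54.4% of the gamma cluster, against 26.9% and 23.1% in the flanks and 34.6% over all autosomes with X.

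**Figure D5:**
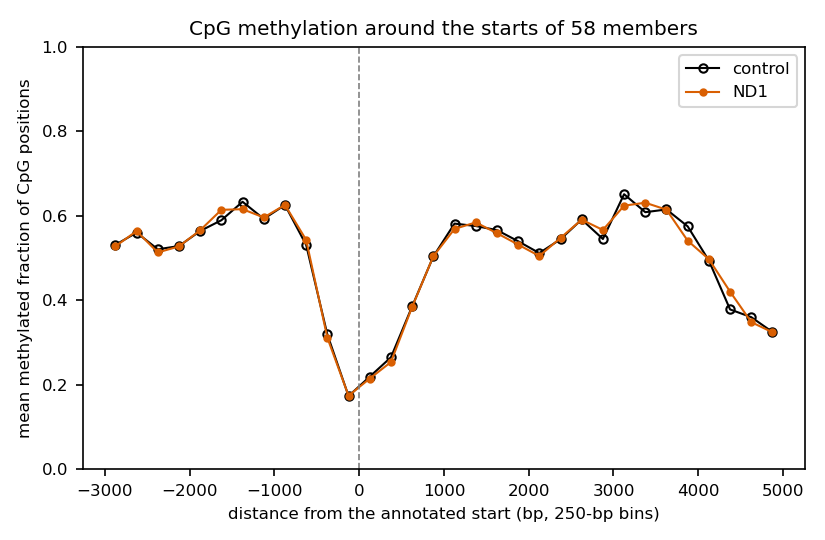
Mean methylated fraction of CpG positions in 250-base bins by distance from the annotated start, pooled over the 58 member windows, for the control library (open circles) and the ND1 library (filled circles). Both lines fall from 0.626 at 875 bases before the start to about 0.17 just before it (0.173 and 0.174) and return to 0.504 at 875 bases after it.

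Members with less methylated promoters tended to have higher RNA levels in the ND1 cultures, outside the beta cluster. The 3 members with a promoter fraction below 0.1 in ND1 cells, all of C type, had a median of 9.44 FPKM at day 7. The 16 between 0.1 and 0.2 had 4.06 FPKM, the 13 between 0.2 and 0.3 had 3.36 FPKM and the 26 at 0.3 or above had 1.90 FPKM. The Spearman rho of promoter methylation with RNA level across the 58 members was -0.439 in ND1 cells, and within clusters it was -0.569 for alpha (n = 14), -0.504 for gamma (n = 22) and 0.168 for beta (n = 22). In control microglia the rho with RNA at day 7 was -0.418 over the 58, and within clusters it was -0.270 for alpha, -0.223 for gamma and 0.059 for beta. That of ND1 promoter methylation with RNA in cortical neurons was -0.521 over the 58, and -0.407, -0.446 and 0.025 for alpha, gamma and beta. Over the 53 members other than C-type, the rho was -0.349 in ND1 cells at day 7 and -0.470 in control microglia at day 7. That of ND1 promoter methylation with RNA in cortical neurons was -0.440 over these 53. The values over all 58, and the medians by class, also hold the differences in methylation and RNA level between clusters. These correlations are descriptions: members of a cluster share exons, the bisulfite libraries carry no day, and methylation of neurons was not analysed here.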

How the data were processed

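RNA was measured in 15 libraries of 5 groups and CpG methylation in 2 bisulfite libraries; the 10 ChIP samples of the series were not used here. The deposited expression values are FPKM per gene symbol. Per the submitters' processing notes, TopHat, Bowtie2, Cufflinks and Cuffdiff were used on mm10, with no versions. The deposited methylation values are a fraction per CpG position, as the authors made them; no source used here gives the bisulfite aligner or caller, and the coverage is unknown. Alternative alpha and gamma isoforms share exons, which can move FPKM between members.

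From these, log2(FPKM + 1) was fitted with limma 3.58.1 (R 4.3.3; 5 group means, all 15 libraries, trend in the prior variance) on the 13599 genes that reached 1 FPKM in 3 libraries or more, after 4 duplicated entries were dropped, and p-values were adjusted by Benjamini-Hochberg over all tested genes. A call needed an adjusted p below 0.05 and an absolute log2 change of at least 1. The step was checked on simulated data. FPKM kept no counts, so no count test was run; an estimate from the step size of 71 low beta values, 84.5% of them within 0.1 of a whole fragment, gave 25900000 to 40000000 fragments per library. Methylation was averaged over CpG positions listed in both libraries, in windows with at least 3 of them, around RefSeq starts, with members taken on the plus strand (Python 3.11.15, pandas 2.3.3).

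The members and lists were chosen with earlier results of these data known. Named members are the 5 C-type isoforms, the 3 with the highest mean per cluster and the 5 called members with the largest change in each comparison; others are marked as chosen after their values were seen. Named list genes are up to 4 called in each direction. Alternatives were another pseudocount, other filters, quantile normalization, no variance trend, only the compared groups, a replicate block, removal of a day 7 share from day 2, other methylation windows and leaving out each library. RefSeq promoter or protein sequences of the members were not used here.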

Additional observations from a re-analysis of the deposited data

Results flagged for a closer look

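For 36 of the 52 tested members, of which the 12 chosen by the naming rule are given here, the ND1 effect (ND1 minus control, log2 of FPKM + 1) differed between day 2 and day 7 by more than 1 at an adjusted p below 0.05, by the interaction term in limma, and each was larger at day 7. Among C-type members the difference was 1.92 for Pcdhac2 and 1.39 for Pcdhgc4. Among alternate alpha members it was 1.69 for Pcdha12, 1.55 for Pcdha5 and 1.52 for Pcdha3. Among beta members it was 1.81 for Pcdhb17, 1.54 for Pcdhb20 and 1.49 for Pcdhb7. Among gamma A and B members it was 1.58 for Pcdhgb1, 1.56 for Pcdhga3, 1.49 for Pcdhgb7 and 1.38 for Pcdhga11. Of all tested genes, 20.5% had such a difference in the same direction, and the median rise at day 2 was 16.7% of that at day 7 for members and 17.1% for other neuron-high genes.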

How the results depend on the processing

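With a pseudocount of 0.1, 46 of 52 members were called higher in ND1 cultures at day 2 (17.4% of tested genes). In that setting 1 was lower in the difference between days (24.6%), and 6 were higher in control microglia at day 7 (8.2%). Against neurons, 2 were lower in ND1 cultures (8.77%). With a filter of 0.1 FPKM as well, these counts were 48, 1, 6 and 5 of 58 (15.1%, 22.9%, 8.84% and 10.1% of tested genes). With a filter of 5 FPKM only 12 members were tested. In ND1 cultures at day 7, 12 were called higher (27.1% of tested genes), and 11 in the difference between days (22.7%). In neurons against control microglia 12 were called higher (27.8%), and 1 in control microglia at day 7 (3.75%). Quantile normalization left 1 member called higher at day 2 (6.01% of tested genes) and 1 lower than in neurons (7.69%). Removal of the day 7 share left 0 at day 2 (0.727% of tested genes were called higher). That share was set from other neuron-high genes and lay near the median share of the members, so the count restates those shares. Leaving out 1 library at a time gave 1 to 2 members higher in control microglia at day 7 (1 without control replicate 2 of day 7). It gave 0 to 1 lower in ND1 cultures than in neurons (1 without ND1 replicate 2 of day 7 or neuron replicate 3). Higher counts were 2 to 4 at day 2, 47 at day 7, 36 to 37 in the difference between days and 45 to 46 in neurons. With all libraries in, the shares of tested genes called, in the same order, were 3.9%, 6.24%, 9.1%, 25.7%, 20.5% and 28.1%.

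Under quantile normalization the sign turned for 18 of 52 members at day 2 (4 past an adjusted p of 0.05 both ways) and 2 at day 7 (2 past it both ways). It turned for 11 in ND1 against neurons and 10 in control microglia over time (0 past it both ways in each). Among members chosen by the naming rule, signs turned in ND1 against control at day 2 for Pcdhac1 (-0.0524 with quantile normalization, -0.0028 with the share removed), Pcdhac2 (-0.15 with the share removed) and Pcdhgc5 (-0.35 and -0.0685), and for Pcdhac2 in control microglia over time (-0.0183 with quantile normalization). Pcdhgc5 in neurons against control microglia ran from -0.14 to 0.0665 with 1 library left out. Apart from the construction of the filter and of the share removal, the cause was not tested. The median promoter fraction was 0.183 in control and 0.171 in ND1 cells from 250 bases before to 50 after the start, and 0.276 and 0.258 with at least 10 CpG positions; the first-exon median was 0.402 and 0.380 from 0 to 1000 bases.

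Libraries of the same replicate number showed little correlation (2 of 30 pairs above 0.1, range -0.226 to 0.161), which cannot show whether they were paired. With the number as a replicate block the counts stayed as in the main fit, at 3, 47, 36, 2 and 45 higher and 0 lower.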
